A study of Caenorhabditis elegans with 13 samples.

Results

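The mir-75 and mir-79 family of Caenorhabditis elegans was followed through its 2 listed mature miRNAs, cel-miR-75-3p and cel-miR-79-3p, taken by name from the 434 mature miRNAs counted in each library. The rule that picked them is a list of names and uses no measured value, though earlier results of these data were known when the family was chosen. The opposite arms of the same hairpins, miR-75-5p and miR-79-5p, are described beside them. The libraries came from whole worms of N2, the standard laboratory strain. Worms kept on CR or IF were sampled at adult days 4, 6, 8 and 10, and worms fed ad libitum (AL) at adult days 2, 4, 6, 8 and 10. CR and IF are the labels' own abbreviations; neither regimen is described there. Each of the 13 combinations has 1 library, and the labels do not say how many worms or cultures stand behind it. The SEs of diet and day comparisons therefore rest on how diet differences varied from day to day. That spread is pooled over all diets and moderated across miRNAs, so an SE is not the spread of 1 difference alone. Slopes over the days have no such block for day.

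A miRNA is cut from a hairpin precursor whose 2 sides give a 5p and a 3p arm. Usually 1 arm is kept in the Argonaute protein that represses target mRNAs, and the other is degraded. Family membership rests on the seed, the stretch near the 5′ end that pairs with targets, which miR-75-3p and miR-79-3p have in common. mir-79 is related to the mir-9 group of flies and mammals. In the worm it acts in the epidermis, where it keeps the glycosylation genes sqv-5 and sqv-7 in check and thereby affects neuronal migration.

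In the WBcel235 assembly the mir-75 hairpin occupies positions 2372453 to 2372549 on the plus strand of chromosome X. It is intergenic, with no annotated gene over it, and the nearest protein-coding gene, F47G3.3, lies 3436 bp away. The hairpins of mir-74 and mir-73 stand on the same strand at distances of 3314 and 3590 bp. The mir-79 hairpin occupies positions 9332946 to 9333043 on the plus strand of chromosome I. A non-coding RNA gene on the opposite strand, C12C8.6, covers part of it, and the nearest protein-coding gene is lin-41 at 1757 bp, itself a target of let-7 in the timing of larval development. No other listed hairpin lies within 10000 bp of mir-79. Both mature names belong to 1 precursor each, so no reads of either were split between hairpin entries in the files.

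Library totals ran from 2639586 to 5143918 reads. Levels are given as counts-per-million values (CPM) after TMM scaling, which sets each library to a common level of the bulk of miRNAs; its factors ran from 0.475 in AL at day 8 to 1.63 in IF at day 6. Both members are of middling abundance. miR-75-3p averaged 37.0 CPM over the 13 libraries and stood between rank 83 and rank 146 of 434 by reads. miR-79-3p averaged 88 CPM and stood between rank 71 and rank 104. Together they made up between 0.00275% and 0.0276% of the reads of a library. The miR-75-3p value rests on 28 to 400 reads and the miR-79-3p value on 72 to 882. At the shallowest point, 28 reads in IF at day 8, the 95% Wilson interval of miR-75-3p ran from 4.69 to 9.80 CPM before scaling. Such intervals cover the error of counting alone, since PCR copies of a molecule are counted separately. In RNA of whole worms, fewer cells of a type and less RNA per cell cannot be told apart.

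miR-75-3p was lower in IF than in AL worms on every day that both were sampled, while the miR-79-3p values of the diets overlapped. Of the 2 members, miR-75-3p passed the test between IF and AL, and neither member passed between CR and AL or between CR and IF. In IF worms miR-75-3p stood at 23.2, 9.39, 9.98 and 22.8 CPM on days 4, 6, 8 and 10. In AL worms it stood at 74.3, 53.2, 23.8 and 94.3 CPM on the same days. All 4 IF values lay below all 4 AL values, if narrowly, since the lowest AL value (day 8) was close to the highest IF value (day 4). The means were 16.3 ± 7.69 CPM in IF and 61.4 ± 30.2 CPM in AL (SD, n = 4 days each). The log2 fold change was -1.92 ± 0.41 (SE; edgeR adjusted p = 0.00788), a 3.79-fold lower level, with the same sign on 4 of 4 days. In this comparison 14.2% of the 212 tested miRNAs passed, and miR-75-3p ranked 7th by p. This fall was 1.47 on the log2 scale with libraries scaled by total counts (edgeR adjusted p = 0.0320), where the median of all miRNAs moved up to 0.45 from 0.03. The call was lost without the AL library of day 6 (-1.67, edgeR adjusted p = 0.0557), without all 3 libraries of that day (-1.59, edgeR adjusted p = 0.103) and with no block for day (-1.91, edgeR adjusted p = 0.416).

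**Figure D1:**
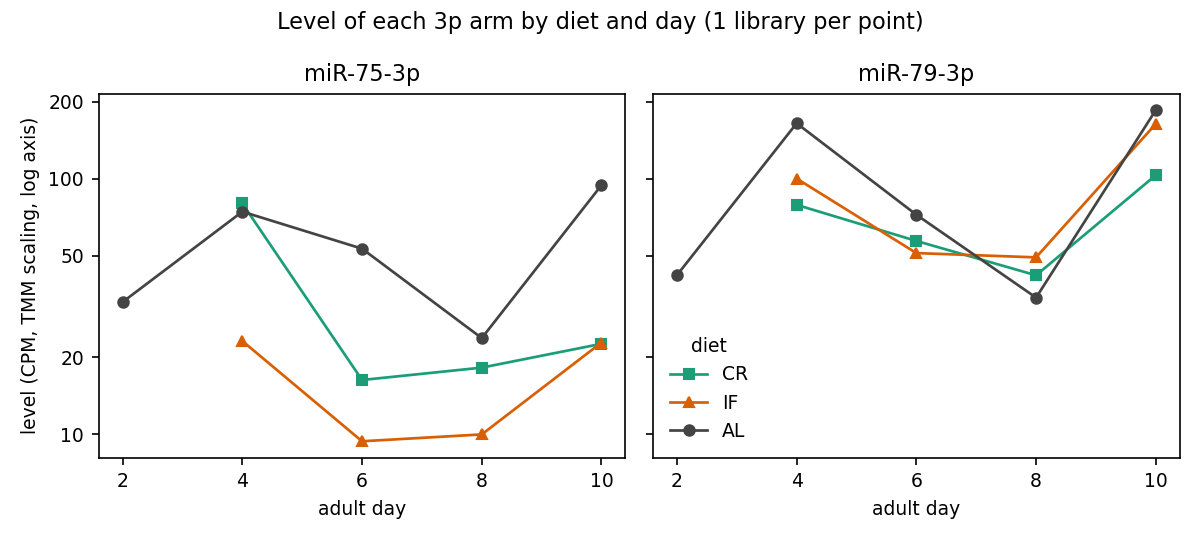
Level of miR-75-3p and miR-79-3p in CPM on a log axis against adult day, 1 point per library, in CR (squares), IF (triangles) and AL (circles). miR-75-3p is between 9.39 and 23.2 CPM in IF and between 23.8 and 94.3 CPM in AL over days 4 to 10; the miR-79-3p lines cross, and its lowest level in each diet is that of day 8 among days 4 to 10.

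In CR worms the highest level of miR-75-3p was that of day 4. It stood at 80.0 CPM at day 4, beside 74.3 CPM in AL, and at 16.3, 18.2 and 22.6 CPM on days 6, 8 and 10, below the AL value each time. The log2 difference between CR and AL was 0.11 on day 4, then -1.68, -0.37 and -2.04 on days 6, 8 and 10. The fitted log2 fold change was -1.005 ± 0.40 (SE; edgeR adjusted p = 0.167), with 3 of 4 days below 0, so the mean difference did not pass. Between CR and IF the log2 fold change was 0.92 ± 0.40 (edgeR adjusted p = 0.480), higher in CR on 3 of 4 days and level on day 10. The mean in CR was 34.3 ± 30.6 CPM (SD, n = 4 days). By edgeR 0% of the 212 miRNAs passed between CR and AL, with 39 at an unadjusted p under 0.05; DESeq2 passed 21 and limma-voom 0. Between CR and IF, 0% passed as well, with 18 at an unadjusted p under 0.05 and 0 by DESeq2 or limma-voom. The comparisons with AL share the AL libraries.

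miR-79-3p gave overlapping values in the 3 diets. It stood at 79.0, 57.1, 41.9 and 103.2 CPM in CR on days 4, 6, 8 and 10. In IF the values were 100.1, 51.1, 49.2 and 163.8 CPM. In AL they were 164.7, 72.2, 34.2 and 185.5 CPM. AL had the highest value on days 4, 6 and 10 and the lowest on day 8. The log2 fold change was -0.25 ± 0.33 for IF against AL (edgeR adjusted p = 0.659), -0.52 ± 0.33 for CR against AL (adjusted p = 0.460) and -0.28 ± 0.33 for CR against IF (adjusted p = 0.760), all SE. With total counts as the scaling the IF against AL value was 0.22, so no direction is given for it.

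The ratio of the members needs no scaling, because both counts come from the same library. In IF there were 0.139 to 0.231 reads of miR-75-3p for each read of miR-79-3p, against 0.451 to 0.737 in AL over days 4 to 10. The log2 ratio was -2.10, -2.43, -2.28 and -2.84 in IF on days 4, 6, 8 and 10. In AL it was -1.15, -0.44, -0.52 and -0.98. The IF ratio was the lower one on 4 of 4 days, by a mean of -1.64 ± 0.47 on the log2 scale (SD, n = 4 days), and the IF and AL values did not overlap. In CR the log2 ratio was 0.02 on day 4, above the AL values, the only library in which miR-75-3p had more reads than miR-79-3p. It was -1.80, -1.19 and -2.19 in CR on days 6, 8 and 10. The values of days 6 and 8 lay between the IF and AL ranges, and that of day 10 lay within the IF range. Diet accounted for 62.1% of the variance of this ratio over 12 libraries. When diets were exchanged within days, 10 of 216 arrangements gave as large a share (exact permutation p = 0.0463, one-sided; 0.0926 adjusted over the 6 ratio tests). Day accounted for 15.2% (exact permutation p = 0.330; adjusted 0.330).

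**Figure D2:**
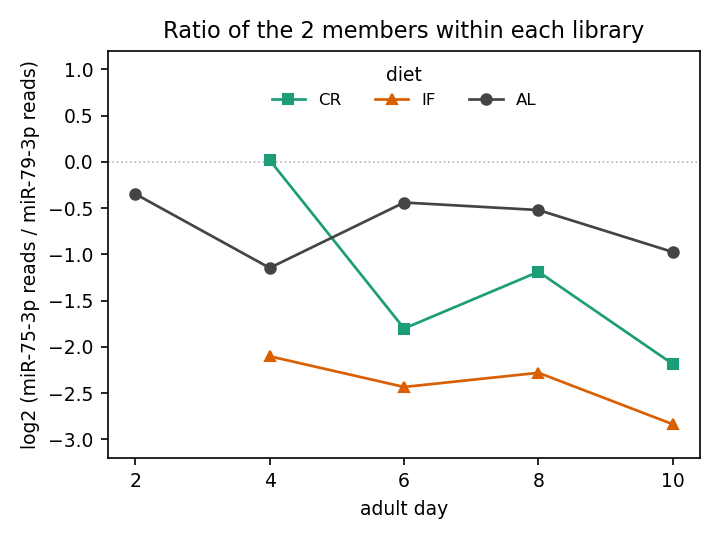
Log2 ratio of miR-75-3p reads to miR-79-3p reads in each library against adult day, in CR (squares), IF (triangles) and AL (circles); the dotted line marks equal reads. The IF points lie between -2.84 and -2.10, the AL points of days 4 to 10 between -1.15 and -0.44, and the CR points between -2.19 and 0.02.

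The 2 arms of mir-75 had opposite signs in IF against AL. miR-75-5p had 51.8, 55.7, 23.9 and 33.1 CPM in IF on days 4, 6, 8 and 10, against 37.6, 34.4, 11.9 and 35.8 CPM in AL. It was higher in IF on 3 of 4 days, opposite to the 3p arm, but did not pass (log2 fold change 0.51 ± 0.35, SE; edgeR adjusted p = 0.327). In CR it had 32.3, 48.1, 24.1 and 61.9 CPM, with a log2 fold change of 0.52 ± 0.35 against AL (edgeR adjusted p = 0.473). The 3p arm held 30.9%, 14.4%, 29.5% and 40.9% of the mir-75 reads in IF on days 4, 6, 8 and 10, so the 5p arm led in all 4 libraries. In AL the 3p arm held 66.4%, 60.7%, 66.7% and 72.5% and led in all 4. CR began at 71.2% on day 4 and had 25.3%, 43.0% and 26.7% on days 6, 8 and 10.

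On each of the 4 days the 95% Wilson intervals of the IF and AL shares were apart, the closest being those of day 8, with an upper bound of 39.3% in IF and a lower bound of 55.4% in AL. These intervals cover the error of counting within each library, not the spread between cultures. The log2 ratio of the arms was lower in IF than in AL by a mean of -2.37 ± 0.56 (SD, n = 4 days), with the same sign on 4 of 4 days. Diet accounted for 59.8% of its variance (exact permutation p = 0.0417, 9 of 216 arrangements, one-sided; adjusted 0.0926) and day for 19.0% (exact permutation p = 0.259; adjusted 0.310). Thus neither ratio that involves miR-75-3p passed for diet after adjustment. A two-sided exchange of only IF and AL over 4 days cannot give a p below 0.125. The AL library of day 2, which has no partner in another diet, had a 3p share of 21.7% (interval 18.6% to 25.0%), outside the range of the other AL libraries and within that of IF.

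**Figure D3:**
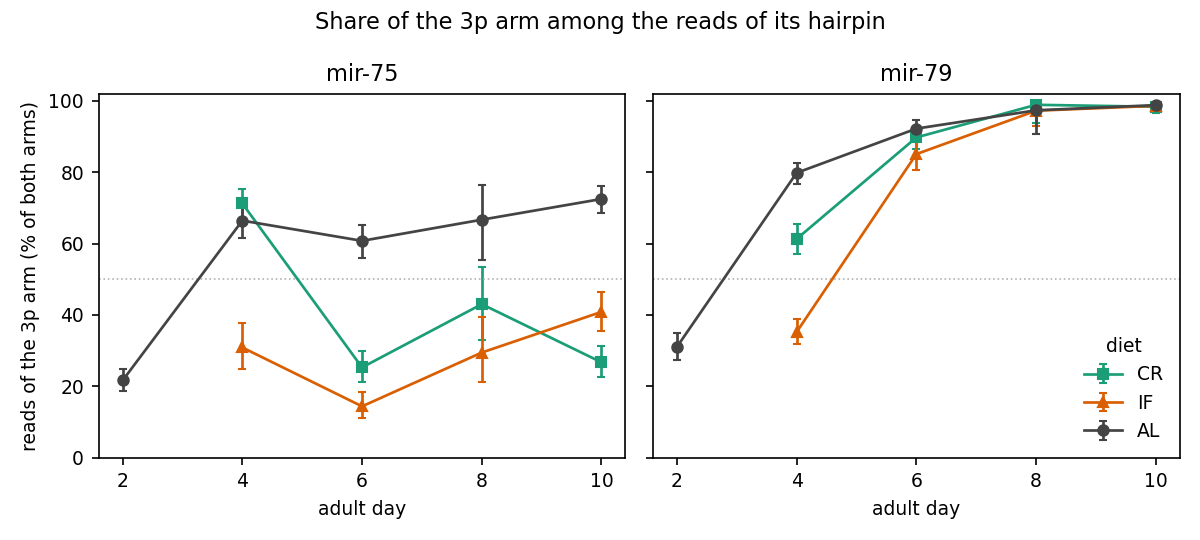
Reads of the 3p arm as a percentage of the reads of both arms, for mir-75 and mir-79, against adult day in CR (squares), IF (triangles) and AL (circles); bars are 95% Wilson intervals and the dotted line marks 50%. For mir-75, IF lies below 50% and AL above it on days 4 to 10; for mir-79, all diets climb to between 97.2% and 98.8% by days 8 and 10.

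The arms of mir-79 differed by day. miR-79-5p had 49.9, 184.1 and 41.7 CPM in CR, IF and AL at day 4. At day 6 it had 6.55, 9.003 and 6.14 CPM. At day 8 it was left with 1, 4 and 2 reads in CR, IF and AL, and at day 10 with 8, 13 and 10. The 3p arm meanwhile kept 457, 882 and 787 reads in CR, IF and AL at day 10. Its share of the mir-79 reads at day 4 was 61.3% in CR, 35.2% in IF and 79.8% in AL; at day 6 it was 89.7%, 85.0% and 92.2%. It was 98.8%, 97.2% and 97.3% at day 8 and 98.3%, 98.5% and 98.7% at day 10, in the same order of diets. The day 8 shares rest on 86, 142 and 74 reads, with a lowest Wilson bound of 90.7%. In the AL library of day 2 the share was 31.1%, with 393 reads of the 5p arm and 177 of the 3p arm. The 5p arm thus led in 2 of 13 libraries, AL at day 2 and IF at day 4.

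Between consecutive days miR-79-5p fell by 3.41 ± 0.47 on the log2 scale at day 6 against day 4 (SE; edgeR adjusted p = 0.000286), where it ranked 2nd by p. It fell by 2.97 ± 0.60 at day 8 against day 6 (edgeR adjusted p = 0.000868). Each fall was seen in 3 of 3 diets. At day 10 against day 8 it had a value of 1.25 ± 0.65 (edgeR adjusted p = 0.122), on few reads. Over all 13 libraries its fitted slope was -0.86 ± 0.13 per day (edgeR adjusted p = 0.000980, 3rd by p), while 13.6% of 214 tested miRNAs passed. This fit treats the libraries of a day as independent, though they moved together, so its errors are too small. With day as a random block (limma-voom) the 29 calls over all miRNAs became 4, miR-79-5p among them. The slope of miR-79-3p was 0.09 ± 0.09 per day (edgeR adjusted p = 0.506). Without the libraries of day 4 the slope of miR-79-5p was -0.65 and the call was lost (edgeR adjusted p = 0.0546). For the log2 ratio of the 2 arms, day accounted for 90.9% of the variance (exact permutation p = 0.00347, 2 of 576 arrangements, one-sided; adjusted 0.0208). Diet accounted for 3.6% (exact permutation p = 0.185, adjusted 0.278). The exchange of days treats the libraries of a day as independent. Adult day cannot be told apart from any handling that the libraries of a day shared. At day 4 alone the diets were far apart, with log2 ratios of 0.66 in CR, -0.88 in IF and 1.98 in AL; at day 10 they were 5.75, 6.03 and 6.23.

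miR-79-5p was higher in IF than in AL on 4 of 4 days, with log2 differences of 2.13, 0.52, 0.41 and 0.03 on days 4, 6, 8 and 10. The fitted value of 1.02 ± 0.44 (SE) did not pass (edgeR adjusted p = 0.131), nor did that of CR against IF, -1.08 ± 0.43 (edgeR adjusted p = 0.480). With total counts as the scaling the IF against AL value was 1.40 and passed (edgeR adjusted p = 0.0330). Without the day 4 libraries it was 0.30 (edgeR adjusted p = 0.751), so much of the difference came from that day. The day 8 difference rests on 4 reads in IF and 2 in AL, and that of day 10 on 13 and 10.

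Arm ratios that vary this much were common. Among 39 hairpins with both arms at a mean of 10 CPM or more before scaling, the log2 arm ratio spanned a median of 6.12 over the 13 libraries and at most 11.46. mir-79 spanned 7.38, the 10th widest, and mir-75 spanned 3.95, the 33rd. The leading arm changed in 8 of the 39, mir-75 and mir-79 among them: the 3p arm of mir-75 led in 5 libraries and the 5p arm in 8.

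Over days 4 to 10 the mean level of each 3p arm over the diets was lowest at day 8 and higher at day 10. Within CR and IF, miR-75-3p was lowest at day 6, at 16.3 and 9.39 CPM. In AL at day 2, miR-75-3p stood at 32.9 CPM and miR-79-3p at 41.9 CPM, each below its AL level of day 4. Averaged over the 3 diets, miR-79-3p stood at 114.6 ± 44.7, 60.1 ± 10.9, 41.8 ± 7.48 and 150.9 ± 42.7 CPM on days 4, 6, 8 and 10 (SD, n = 3 diets). miR-75-3p stood at 59.1 ± 31.3, 26.3 ± 23.6, 17.3 ± 6.94 and 46.6 ± 41.3 CPM. At day 10 against day 8 miR-79-3p rose by 1.80 ± 0.39 on the log2 scale (SE; edgeR adjusted p = 0.00156) in 3 of 3 diets. In the same step miR-75-3p had 1.23 ± 0.47 (edgeR adjusted p = 0.0400) and miR-75-5p 1.17 ± 0.41 (edgeR adjusted p = 0.0257), each with the same sign in 3 of 3 diets. Changes were common in this step: 49.5% of the 212 tested miRNAs passed. At day 10, 49 of them were higher and 56 lower, against 61 and 48 with DESeq2 size factors and 84 and 34 with total counts, so this balance turned with the scaling. With total counts the median over all miRNAs was 0.76 in place of -0.11, and the values were 2.69 for miR-79-3p, 2.13 for miR-75-3p and 2.01 for miR-75-5p, all still past the threshold. The miR-75-3p call was lost without 1 of 6 libraries: AL of day 8 (0.90) or day 10 (0.97), CR of day 8 (1.31), or IF of day 6 (1.23), day 8 (1.38) or day 10 (1.08). That of miR-75-5p was lost without AL of day 8 (0.93) or day 10 (1.13), CR of day 8 (1.24) or day 10 (0.87), or IF of day 8 (1.25). The miR-79-3p call held without any 1 of the 12 libraries, at 1.45 to 1.95.

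At day 6 against day 4, where 17.5% of 212 passed, miR-75-3p fell by 1.40 ± 0.46 (SE; edgeR adjusted p = 0.0481) in 3 of 3 diets. This call was close to the threshold and was kept only without the AL or the IF library of day 4; without any other of the 12 libraries the value lay between -1.73 and -0.87 and did not pass. miR-79-3p had -0.89 ± 0.38 (edgeR adjusted p = 0.103). With total counts as the scaling these values were -0.60 and -0.07, beside a median of 0.98 over all miRNAs in place of 0.14. At day 8 against day 6, where 50.9% passed, miR-75-5p fell by 1.24 ± 0.41 (edgeR adjusted p = 0.0181), a call lost without AL of day 8 (-1.001) or IF of day 6 (-1.14). miR-75-3p had -0.34 ± 0.47 (adjusted p = 0.546) and miR-79-3p -0.51 ± 0.38 (adjusted p = 0.266), both by edgeR. With total counts the 2 values were -1.74 and -1.87 and both passed (edgeR adjusted p = 0.0114 and 0.00152), beside a median of -1.20 over all miRNAs in place of 0.16. A straight line over the days described neither 3p arm: the miR-75-3p slope was -0.04 ± 0.10 per day (edgeR adjusted p = 0.854).

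**Figure D4:**
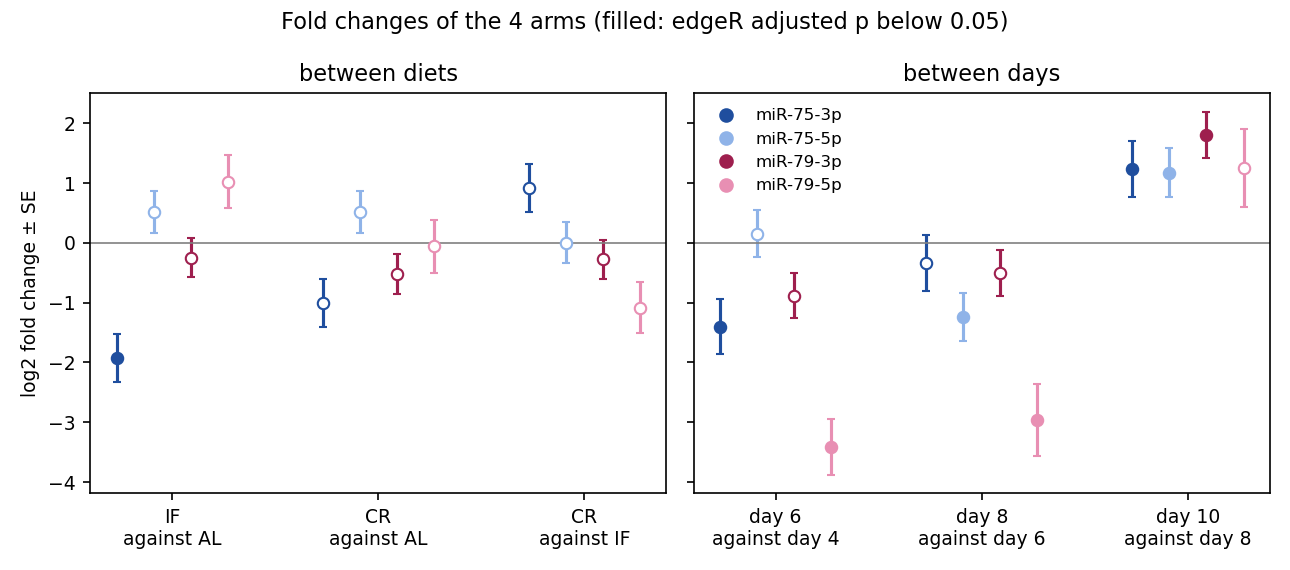
Log2 fold changes with SE (bars) of miR-75-3p, miR-75-5p, miR-79-3p and miR-79-5p between diets (left) and between consecutive sampled days (right), from edgeR on the 12 libraries of days 4 to 10; filled points have an adjusted p below 0.05. Between diets the only filled point is miR-75-3p in IF against AL (-1.92); between days the lowest points are miR-79-5p at day 6 (-3.41) and day 8 (-2.97).

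Of the 4 arms of the neighbours of mir-75 on chromosome X, 3 rose at day 8 against day 6. Of all 212 tested miRNAs 50.9% passed there, 57 rising and 51 falling. In that step miR-74-3p rose by 3.56 ± 0.54 (edgeR adjusted p = 7.65e-05), miR-73-3p by 2.24 ± 0.57 (edgeR adjusted p = 0.00386) and the low miR-73-5p by 3.53 ± 0.55 (edgeR adjusted p = 0.000102), all SE, while miR-75-5p fell. miR-74-5p had 0.76 ± 0.47 and did not pass (edgeR adjusted p = 0.182). At day 10 against day 8, where 49.5% passed and both arms of mir-75 rose, the neighbours went the other way. There miR-73-5p fell by 2.77 ± 0.54 (edgeR adjusted p = 0.000624) and miR-74-3p by 1.46 ± 0.49 (edgeR adjusted p = 0.0224). miR-73-3p (-1.23 ± 0.55) and miR-74-5p (-0.63 ± 0.47) did not pass in that step. Other scalings were not run for the neighbours. Between IF and AL, miR-73-5p fell by 1.495 ± 0.47 (edgeR adjusted p = 0.0423), in the direction of miR-75-3p. The main arms did not pass there, with 0.54 ± 0.48 for miR-73-3p (edgeR adjusted p = 0.476) and -0.19 ± 0.42 for miR-74-3p (edgeR adjusted p = 0.807). Pearson r of log2 CPM with miR-75-3p over the 13 libraries was -0.30 for miR-73-3p, -0.15 for miR-74-3p, -0.04 for miR-73-5p and -0.29 for miR-74-5p. After subtracting the mean of each day it was -0.16 for miR-73-3p, 0.40 for miR-74-3p, 0.70 for miR-73-5p and -0.05 for miR-74-5p, so the sign for miR-74-3p and miR-73-5p turned.

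Among the 161 other miRNAs with a mean of 10 CPM or more, those most like miR-75-3p over the 13 libraries were miR-244-5p (Pearson r = 0.84), miR-58a-3p (0.74), miR-82-3p (0.70), miR-60-3p (0.67) and miR-41-3p (0.67). Subtracting the mean of each day over the 12 libraries of days 4 to 10 leaves differences between diets together with the deviations of each library. Those most like miR-75-3p were then miR-47-3p (0.93), miR-77-3p (0.91), miR-46-3p (0.91), miR-244-5p (0.84) and miR-38-5p (0.81). For miR-79-3p they were miR-43-3p (0.88), miR-60-3p (0.84), miR-2-3p (0.76), miR-1829c-5p (0.71) and miR-239b-3p (0.71) over the 13 libraries. After subtracting day means they were miR-239b-5p (0.80), miR-5552-5p (0.76), miR-259-5p (0.74), miR-39-5p (0.69) and miR-239a-3p (0.67). Between the 2 members r was 0.56 over 13 libraries and 0.36 after subtracting day means. miR-75-3p and its own other arm had r = 0.01 and -0.68, and miR-79-3p and its other arm 0.16 and -0.12. All these values share libraries and scaling and are descriptions.

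In IF against AL, 4 of 22 listed tissue miRNAs passed, beside 14.2% of all tested miRNAs, so the lists as a whole were near the background. Of 3 intestinal miRNAs, miR-60-3p fell in IF against AL (-1.05 ± 0.32, SE; edgeR adjusted p = 0.0416) and none rose; their list had a median of -0.28, against 0.03 over all tested. Of 6 miRNAs of the hypodermis, which act in developmental timing, miR-48-5p fell (-1.39 ± 0.32; edgeR adjusted p = 0.0108) and none rose (median -0.36). Of 8 miRNAs of oocytes and embryos, miR-37-3p (2.26 ± 0.35; edgeR adjusted p = 0.00165) and miR-39-3p (1.07 ± 0.33; edgeR adjusted p = 0.0416) rose and none fell (median 0.69). Between CR and AL and between CR and IF none of the 22 passed, as was so for all 212 tested miRNAs (0% in each). In IF against AL, none of the 3 neuronal miRNAs passed (median 0.45), nor did muscle miR-1-3p (-0.78 ± 0.48, edgeR adjusted p = 0.303) or glial miR-228-5p (0.88 ± 0.41, edgeR adjusted p = 0.151). Summed over the list, hypodermal miRNAs ranged from 43478 to 431181 CPM in IF and from 49537 to 772569 in AL, and those of oocytes and embryos from 93342 to 411658 in IF and from 38721 to 168360 in AL. TMM-scaled values have no fixed total per library, so these sums are not shares of reads.

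At day 8 against day 6, where 50.9% of all tested miRNAs passed, 4 of the 6 hypodermal miRNAs, miR-1-3p, 1 of 3 intestinal and 1 of 3 neuronal miRNAs rose, and 7 of the 8 miRNAs of oocytes and embryos fell. At day 10 against day 8, where 49.5% passed, 3 hypodermal miRNAs and miR-1-3p fell. Of the others, 6 miRNAs of oocytes and embryos and 1 intestinal miRNA, miR-60-3p (2.82 ± 0.39, SE, edgeR adjusted p = 5.03e-05), rose. The remaining intestinal miRNAs, miR-240-5p (-0.36 ± 0.50) and miR-786-3p (-0.21 ± 0.43), had the opposite sign and did not pass. The intestinal miRNA that rose at day 8 against day 6 was miR-786-3p (1.91 ± 0.45, edgeR adjusted p = 0.00249), while miR-60-3p had -0.64 ± 0.37 (edgeR adjusted p = 0.150). Split by direction, 57 of all 212 tested miRNAs rose and 51 fell at day 8 against day 6 (23 and 105 with total counts). At day 10 against day 8, 49 rose and 56 fell (84 and 34 with total counts). The lists are short, with 1 to 8 miRNAs, and were chosen with earlier results of these data known. Their counts are descriptions, and a difference from all miRNAs was not tested. The hypodermal sum ranged from 431181 to 772569 CPM at day 8 and from 43478 to 52550 at day 6. The sum of oocytes and embryos ranged from 38721 to 93342 CPM at day 8 and from 99785 to 192567 at day 6. TMM factors were 0.475 to 0.704 at day 8 and 1.54 to 1.63 at day 6. The scaling therefore raised the day 8 sums and lowered those of day 6 relative to the reads. The defining neuronal lsy-6-3p was near the limit of detection, at a mean of 2.06 CPM, where 3 reads correspond to 0.583 to 1.14 CPM before scaling. The other neuronal entries were scarce too, miR-124-5p at a mean of 8.83 CPM and miR-791-3p at 13.8 CPM. For mir-124 the 5p arm stands in the list, as the arm with more reads. The part of these tissue differences in the levels of miR-75 and miR-79 was not tested.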

How the data were processed

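Small RNA of 18 to 30 nt was cut from a 6% polyacrylamide gel and made into libraries with an Illumina small RNA kit, version 1.5, per the labels' protocols. The authors deposited a raw count of reads for each pair of mature and precursor miRNA, per the file headers. Which aligner, counter, miRNA release and build they used is not given in the sources used here. Of 447 entries, those of 1 mature miRNA were collapsed to the highest count (434 left). Positions are from the Ensembl WBcel235 annotation; mature sequences were not used here.

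Counts with 10 reads in 4 libraries were tested with edgeR 4.0.16 (R 4.3.3, TMM scaling, quasi-likelihood, two-sided, Benjamini-Hochberg over all tested miRNAs, threshold 0.05). Diets and consecutive days came from 1 model of diet and day on the 12 libraries of days 4 to 10, slopes from day as a number plus diet on 13. The title numbers stand for the day, so day is the block: after removing diet means, libraries of the same day correlated at 0.554 to 0.894 (12 pairs) and others at -0.586 to 0.317 (36 pairs). Log2 read ratios (0.5 added) were tested by exact permutation. The tests were run on simulated counts first. Arms of the 2 hairpins, neighbours within 10000 bp, 22 tissue miRNAs (the arm with more reads) and the 5 most alike were named by rule; a choice by shared seed could not be applied. Members and lists were chosen with earlier results of these data known. Alternatives were DESeq2 1.42.0, limma 3.58.1 (voom), other scalings and filters, summed precursors, no block or diet term, and libraries or days left out; those for the 5p arms were added after seeing the data. Python 3.11.15 with pandas 2.3.3 and matplotlib 3.10.9 made tables and plots.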

Additional observations from a re-analysis of the deposited data

Results flagged for a closer look

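The AL library of day 2 stood apart from the other 4 AL libraries in the log2 ratio of miR-75-3p to miR-75-5p, at -1.852 against 0.63 to 1.39. Its gap to the nearest AL library was 0.764 of the whole range of the group. Of 21 groups of 4 or 5 libraries looked at in this way, for the 4 arms and 3 ratios in each diet, this was the 1 flagged, and chance flags about 1 in 20. Day 2 was sampled in AL alone, so day and library cannot be told apart there.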

How the results depend on the processing

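For IF against AL, miR-75-3p kept its direction in all 25 alternatives and its call in 22. The call was lost with no replicate block (-1.909, edgeR adjusted p = 0.416), without all day 6 libraries (-1.591, adjusted p = 0.103) and without 1 library, AL of day 6 (range -2.131 to -1.671). miR-79-3p reversed with total counts (0.2208), uncalled. The miRNAs called there, 30, became 51 with DESeq2, 0 with no replicate block, 14 with only the 2 diets compared, 6 without day 6, and 7 to 36 without 1 library. For CR against AL, 0 became 9 with DESeq2 size factors, 15 with total counts, 21 with DESeq2, 22 with no low-count filter, 8 with the 100-read filter, 5 with only the 2 diets compared, 1 without day 4, 7 without day 8, and 0 to 13 without 1 library. No replicate block changed no other call.

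At day 6 against day 4, miR-75-3p lost its call with total counts (-0.6012), limma-voom (-1.347) and no diet term (-1.173; without 1 library -1.737 to -0.8666). miR-79-3p passed with DESeq2 size factors and with DESeq2 (-1.147 each). The 37 calls became 93 with total counts, 22 with no diet term and 14 to 55 without 1 library. At day 8 against day 6, miR-75-3p (-1.744) and miR-79-3p (-1.865) passed with total counts; without 1 library miR-75-3p ranged from -0.5183 to 0.008009. At day 10 against day 8, miR-75-3p lost its call with no diet term (1.440; without 1 library 0.9005 to 1.591), and miR-79-5p passed with total counts (2.106).

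For the age slope, miR-75-3p reversed with day as a random block (0.01494), without day 4 (0.1695), without day 8 (9.7e-05) and without CR of day 4 (range -0.1355 to 0.06069), and miR-79-3p without day 10 (-0.2271), all uncalled. The 29 calls became 17 with total counts, 65 with DESeq2, 4 with day as a random block, 3 without day 4, 15 without day 6, 58 without day 10 and 18 to 31 without 1 library. The share of day in the mir-79 arm ratio was 91.86% without day 4, 91.48% without day 6, 90.29% without day 8 and 86.04% without day 10. With a day left out, fewer arrangements exist and the smallest possible p is larger. None of these passed after adjustment, a loss that therefore says little about the ratio. The causes of the other changes were not tested. Counts of 1 to 13 reads limit miR-79-5p on days 8 and 10.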
